A study of Mus musculus with 2 samples.

Results

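The unfolded protein response and the secretory machinery were followed through 35 genes with known roles in the endoplasmic reticulum (ER) and in the first steps of protein export. They were chosen by name, but with earlier results of these data known. All 35 were among the 18193 genes named on the array, and they were read by 84 of its 45101 probe sets, those annotated to one of these symbols alone. Gene expression was measured by the authors in hearts of male C57BL/6J mice, 10 weeks old, 3 days after myocardial infarction or a sham operation. For infarction the left anterior descending coronary artery was tied off for good, whereas sham mice had the operation without the tie. Each group is a single pool of 3 hearts on 1 array, which makes 2 arrays and no replicates. The labels give no genetic change or drug in either group, and they do not separate infarcted from remote muscle. Every difference below is therefore that of 1 infarct pool against 1 sham pool, in log2 units, with no test between the groups.

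Proteins destined for the cell surface or the extracellular space enter the ER through the Sec61 translocon, are folded there by chaperones and disulfide isomerases, and leave in vesicles with a COPII coat. When folding falls behind, the sensors IRE1α, PERK and ATF6 start the unfolded protein response: IRE1α splices the Xbp1 mRNA, PERK slows translation and favours ATF4 and CHOP, and ATF6 is cut in the Golgi to release a transcription factor. These factors raise the synthesis of chaperones and of the ER-associated degradation (ERAD) machinery, which returns misfolded proteins to the cytosol. Cells that secrete much collagen depend on this machinery, and in the injured heart these are chiefly the activated fibroblasts.

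Several promoters of the 35 genes hold the letters of the DNA element through which ATF6, together with the CCAAT-binding factor NF-Y, acts on ER chaperone genes. The sequences are shown because this element is a known link from the sensors to their targets. Promoter windows from 250 bases before to 50 bases after the gene start (RefSeq, assembly GRCm38.p6) were at hand for 29 of the 35 genes; those of Atf6, Creb3l1, Hyou1, Kdelr2, Manf and Sec61a1 were not analysed here. The ER stress response element (ERSE, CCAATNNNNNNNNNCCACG, read on both strands) was found in 8 of these 29 genes, and in 37 of all 27025 genes with a window (0.137%). The element was first described in promoters of such chaperone genes, so that this share is no independent finding.

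The 9 matches follow, each with 10 bases on either side, 5′ to 3′ along the strand of the gene, with the fixed letters of the element in capitals. Matches in the reverse orientation begin with CGTGG and end with ATTGG. They lie at chr2:34772015-34772053 (Hspa5, plus strand), chr8:84847065-84847103 (Calr, minus strand), chr10:86705628-86705666 and chr10:86705523-86705561 (Hsp90b1, minus strand), chr11:50325790-50325828 (Canx, minus strand), chr12:17266481-17266519 (Pdia6, plus strand), chr14:118937817-118937855 (Dnajc3, plus strand), chr15:88819510-88819548 (Creld2, plus strand) and chr19:6046522-6046560 (Syvn1, plus strand).
Hspa5: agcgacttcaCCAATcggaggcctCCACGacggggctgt
Calr: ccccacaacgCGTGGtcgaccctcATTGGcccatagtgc
Hsp90b1, distal: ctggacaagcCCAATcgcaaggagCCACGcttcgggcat
Hsp90b1, proximal: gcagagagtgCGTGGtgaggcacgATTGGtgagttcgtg
Canx: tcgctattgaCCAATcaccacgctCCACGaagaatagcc
Pdia6: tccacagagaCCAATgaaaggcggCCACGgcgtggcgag
Dnajc3: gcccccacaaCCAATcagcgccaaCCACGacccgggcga
Creld2: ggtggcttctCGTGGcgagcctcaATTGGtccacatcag
Syvn1: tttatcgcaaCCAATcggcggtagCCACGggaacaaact

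A shorter relative, ERSE-II (ATTGGNCCACG), was found in the windows of Herpud1 (chr8:94386367-94386397, plus strand) and Dnajb11 (chr16:22857842-22857872, plus strand), and in 12 of all genes (0.0444%). The XBP1 and ATF6 element UPRE (TGACGTGG) was found in those of Sec24d (chr3:123267460-123267487, plus strand) and Kdelr3 (chr15:79516368-79516395, plus strand, in the reverse orientation), and in 193 of all genes (0.714%). No match to these motifs overlapped another. The composite site of ATF4 and C/EBP factors (TGATGNAAT) had a match in 0 of the 29 windows and in 293 of all genes (1.08%), which says only that these letters are absent from these windows.
Herpud1, ERSE-II: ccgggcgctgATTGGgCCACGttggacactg
Dnajb11, ERSE-II: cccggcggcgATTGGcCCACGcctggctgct
Sec24d, UPRE: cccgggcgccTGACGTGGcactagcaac
Kdelr3, UPRE: ggccgccccgCCACGTCAccgcgcggcc

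Most of the 35 genes had higher values in the infarct pool. In pools of whole tissue, more cells of a type and more RNA per cell cannot be told apart. All 35 had a probe set above the median of all probe sets in both pools (log2 values of 6.36 for sham and 6.35 for infarct), so that none was admitted to the comparison through one pool alone. At the probe set of highest mean value, 28 lay above 0 and 7 below 0, whereas 49.5% of all 11961 genes compared lay above 0 and 49.8% below. In all, 7 genes were at least 2-fold higher (3.73% of all genes compared) and 0 were at least 2-fold lower (1.26%). At these probe sets none reached a log2 difference of 1.4 (0 of 35, against 1.49%). The median difference was 0.54 (1.45-fold), and the quartiles were 0.33 and 0.91. Over all genes compared the median was 0, and the quartiles were -0.23 and 0.26. Where a gene had several probe sets above the array median, their differences scattered with an SD of 0.26 (21 of the 35 genes), against 0.23 over 5190 such genes on the array. It is a spread between probes, not between mice. All bright probe sets shared a sign in 17 of these 21 genes (81.0%; 68.9% over the array), and the exceptions were Fkbp11, Sel1l, Canx and Ern1.

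**Figure D1:**
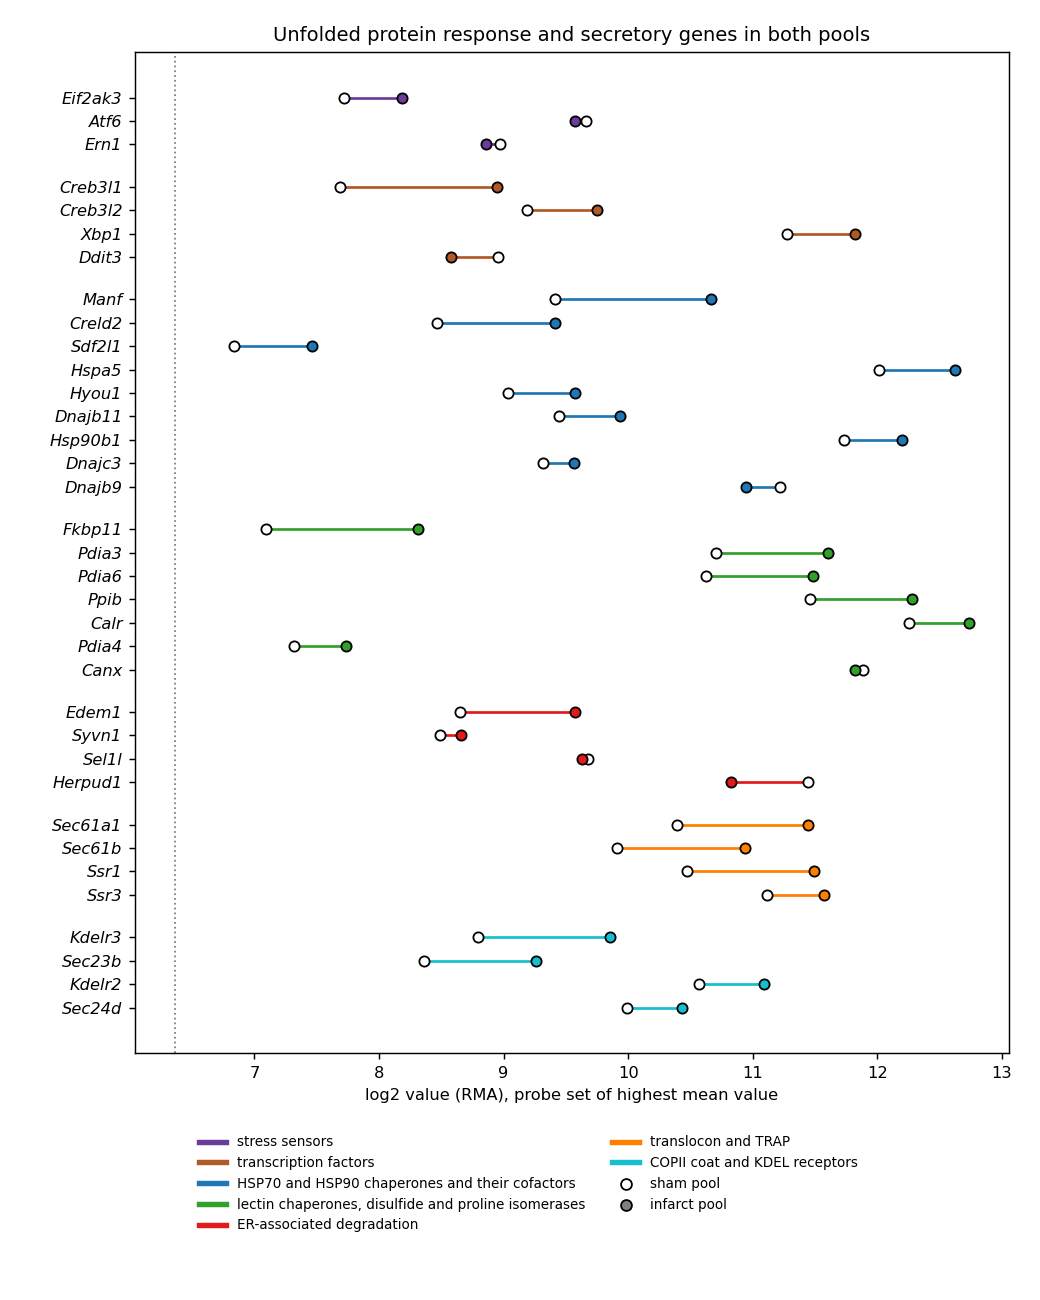
Log2 values of the 35 genes by role, with open circles for the sham pool and filled circles for the infarct pool, 1 array each, and a dotted line at the median of the sham array (6.36). The filled circle lies to the right of the open one for 28 genes, and to the left for Atf6, Ern1, Ddit3, Dnajb9, Canx, Sel1l and Herpud1.

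The counts of 2-fold genes changed with the reference taken as 0. Housekeeping genes had a mean difference of 0.46 (8 genes, from 0.0099 for Tbp to 1.12 for Gusb), and the hybridisation controls, foreign transcripts spiked into the samples, one of -0.32 (18 probe sets). When the housekeeping genes were set to 0 (the housekeeping reference), 0 of the 35 genes were at least 2-fold higher (1.31% of all genes), 1 was at least 2-fold lower (7.65%), and 23 lay above 0 (14.2%). When the hybridisation controls were set to 0 (the hybridisation reference), 13 were at least 2-fold higher (8.04%), 0 lower (0.334%), and 33 lay above 0 (81.9%). With the poly-A controls, spiked in before labelling, as reference, the counts were 4 higher (3.27%), 0 lower (1.66%) and 28 above 0 (43.6%). Each reference moves every gene by the same amount, so that the order of the genes and their distance from the median of all genes do not depend on it.

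The sensors themselves differed little or in both directions. Ern1, which encodes IRE1α, had 8.97 in sham and 8.86 in infarct (difference -0.11), and another probe set above the median gave 0.084. Atf6 had 9.66 and 9.57 (-0.090), with 3 probe sets between -0.31 and -0.090. Both differences were smaller than the SD between probe sets, and with the hybridisation reference both lay above 0. Eif2ak3, which encodes PERK, had 7.72 and 8.18 (0.47), but its 2 other probe sets, both dim (below the array medians), gave -0.15 and -0.37. The median of the 3 sensors was -0.090, and 0.23 with the hybridisation reference.

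The transcription factor genes were split. Creb3l1 encodes OASIS, a membrane-bound relative of ATF6 that is needed for collagen synthesis in bone. It had the highest difference of the 35 genes, with 7.69 in sham and 8.94 in infarct (1.26, 2.39-fold), and ranked 244 among 11961 genes. Its value rests on 1 probe set. Creb3l2, a related factor that drives COPII genes in cartilage, had 9.19 and 9.75 (0.56), and 0.76 by its second probe set. Xbp1, the target of IRE1α, had 11.27 and 11.82 (0.55), with 4 probe sets between 0.47 and 0.69. The annotation used here does not tell its spliced from its unspliced mRNA. By contrast, Ddit3, which encodes CHOP, the factor tied to cell death under lasting ER stress, had 8.95 and 8.58 (-0.38), and its second probe set also gave -0.38. With the hybridisation reference Ddit3 lay at -0.058.

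Chaperones of the HSP70 and HSP90 type and their cofactors were higher in 8 of 9 cases (49.5% of all genes compared lay above 0). Their median was 0.54 (0.078 with the housekeeping reference). Hspa5 encodes BiP, the main HSP70 of the ER and the repressor of the 3 sensors. It had 12.01 in sham and 12.62 in infarct (0.61, 1.53-fold), and its other probe sets gave 0.48 and 0.063. Hsp90b1, the ER form of HSP90, had 11.73 and 12.19 (0.46), and Hyou1, an exchange factor of BiP, had 9.04 and 9.57 (0.54), with 0.082 by its second bright probe set. The largest differences of this role were those of Manf and Creld2. Manf, a stress-induced protein that binds BiP and can be secreted, had 9.42 and 10.66 (1.25, 2.38-fold), and Creld2, another stress-induced ER protein, had 8.47 and 9.42 (0.95). Each has 1 probe set.

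The cochaperones of BiP had differences of both signs. Sdf2l1 had 6.84 and 7.46 (0.62), and Dnajb11, its partner of the J-protein family, had 9.44 and 9.94 (0.50). Dnajc3, the J-protein also known as P58IPK, had 9.32 and 9.56 (0.25), and its 5 probe sets lay between 0.19 and 0.36. Dnajc3 lay at -0.21 with the housekeeping reference. Dnajb9 encodes ERdj4, a J-protein that is induced through XBP1 and brings BiP to IRE1α. It was the one gene of this role with a lower value, with 11.22 in sham and 10.95 in infarct (-0.27), and lay at 0.047 with the hybridisation reference.

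Lectin chaperones, disulfide isomerases and proline isomerases had a median of 0.81 over 7 genes (0.35 with the housekeeping reference, 0.53 when probe sets were averaged, and 0.48 without probe sets ending in _x_at or _s_at). The lectin pair, which holds newly glycosylated proteins, was split: Calr had 12.26 and 12.74 (0.48), with 3 probe sets between 0.48 and 0.59, whereas Canx had 11.89 and 11.82 (-0.062) and 0.18 and 0.12 by its other probe sets. Pdia3, the disulfide isomerase that works with both lectins, had 10.70 and 11.61 (0.90). Pdia6 had 10.63 and 11.48 (0.86), and Pdia4 had 7.31 and 7.73 (0.42), just below 0 with the housekeeping reference. Dim second probe sets gave 0.40 for Pdia3, 0.62 for Pdia6 and -0.19 for Pdia4. Ppib, which encodes cyclophilin B, a proline isomerase of procollagen folding, had 11.46 and 12.27 (0.81, 1.76-fold), and its second probe set gave 0.69.

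Fkbp11, a proline isomerase of the FKBP family, had 7.10 and 8.31 (1.22), but this value rests on a probe set whose probes may also bind other transcripts (ID ending in _s_at). Its second bright probe set gave -0.31, and another one, dimmer than both medians, gave -0.40. The direction of Fkbp11 thus depends on the probe set.

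The ERAD genes ran in opposite directions, with a median of 0.063 (-0.40 with the housekeeping reference, 0.36 at the probe sets of largest difference). Edem1 encodes a lectin that passes misfolded glycoproteins to degradation, and had 8.65 in sham and 9.57 in infarct (0.92). Its second probe set read 7.78 and 9.28 (2.84-fold higher), the largest difference of the 84 probe sets, past both the 2-fold threshold and a log2 difference of 1.4. Syvn1, the ubiquitin ligase HRD1, had 8.49 and 8.66 (0.17), and Sel1l, its adaptor, had 9.68 and 9.63 (-0.044), with 5 probe sets between -0.22 and 0.51. Herpud1, a strongly stress-induced organiser of the HRD1 complex, had the lowest difference of the 35 genes, with 11.45 and 10.83 (-0.62, 1.54-fold lower), and both of its probe sets gave nearly the same value (-0.62 and -0.58). It lay at -0.30 with the hybridisation reference and at -1.08 with the housekeeping reference. Herpud1 ranked 11302 from the top among 11961 genes.

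**Figure D2:**
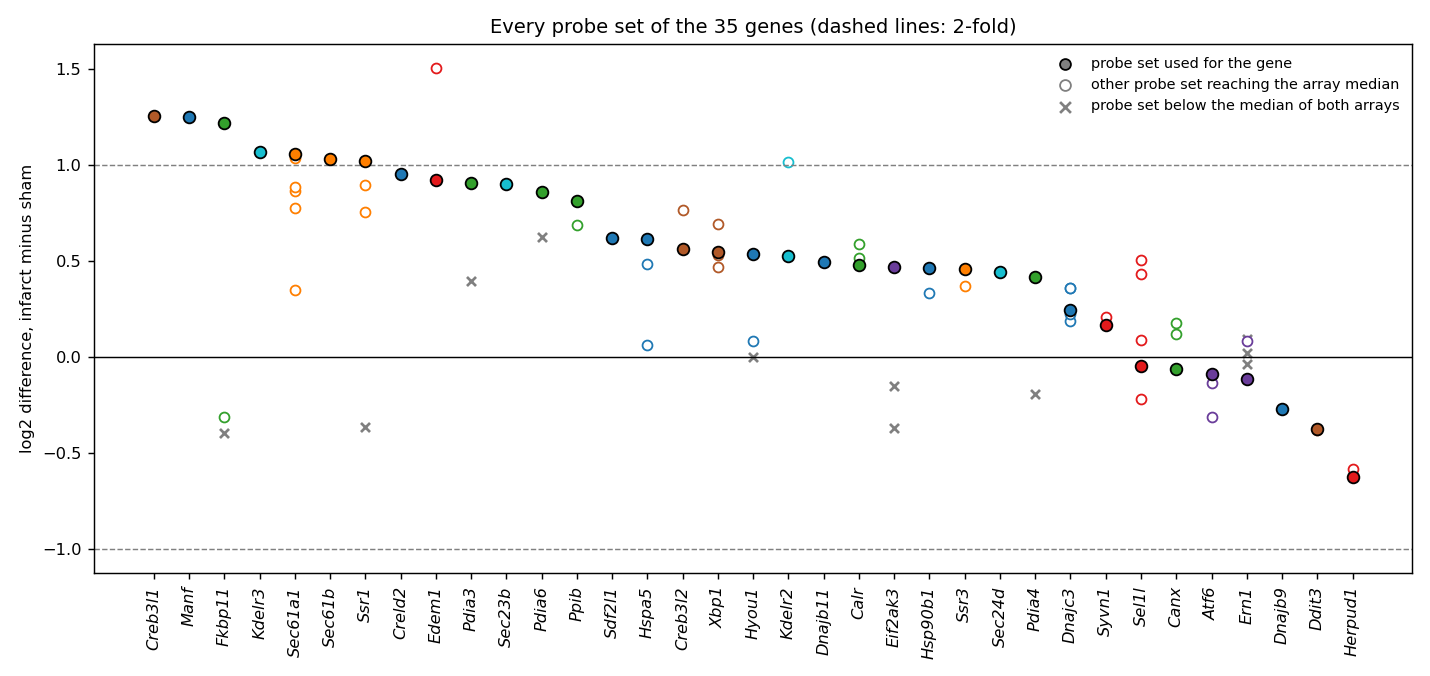
Log2 difference (infarct minus sham) of every probe set of the 35 genes, ordered by the probe set used for each gene (filled), with other probe sets above the array median as open circles, dim ones as crosses, and colours for the roles. Probe sets of Xbp1, Calr, Dnajc3 and Herpud1 lie close together, whereas those of Fkbp11 (1.22 and -0.31) and Sel1l (-0.22 to 0.51) lie on both sides of 0.

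The genes of the entry gate of the ER had a median of 1.02 over 4 genes (0.56 with the housekeeping reference). This was the highest of the roles at the brightest probe sets, but not when probe sets were averaged (0.70, against 0.84 for vesicle export and retrieval). Sec61a1 encodes the channel of the translocon. It had 10.39 and 11.44 (1.06, 2.08-fold), and its 6 probe sets all lay above 0, between 0.35 and 1.06. Sec61b, a small subunit of the same channel, had 9.91 and 10.94 (1.03), on the 1 probe set that names it alone. A dim probe set that it shares with Gm10320 gave -0.31. The TRAP complex assists the translocon, and of its subunits Ssr1 had 10.48 and 11.49 (1.02) and Ssr3 had 11.11 and 11.57 (0.46). For Ssr1, 3 bright probe sets lay between 0.75 and 1.02 and a dim one at -0.36. Sec61a1, Sec61b and Ssr1 stood just above the 2-fold threshold, and Creld2 (0.95) and Edem1 (0.92 by its brighter probe set) were the nearest genes below it.

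All 4 genes of vesicle export and retrieval were higher (49.5% of all genes compared lay above 0). Their median was 0.72 (0.26 with the housekeeping reference, where Sec24d lay at -0.016). Sec23b and Sec24d encode subunits of the inner COPII coat, which in the case of SEC24D selects procollagen among its cargo. Sec23b had 8.36 in sham and 9.26 in infarct (0.90), and Sec24d had 9.99 and 10.43 (0.44), each on 1 probe set. The KDEL receptors return escaped chaperones from the Golgi. Kdelr3 had 8.79 and 9.86 (1.07, 2.09-fold) on 1 probe set, and Kdelr2 had 10.56 and 11.09 (0.53), with 1.01 by its second probe set.

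Paralogues of the translocon, COPII and KDEL receptor genes, named here after their values were seen, had smaller differences. Sec61a2, the second channel gene, differed by -0.17 and Sec61a1 by 1.06. Sec23a differed by 0.17, against 0.90 for Sec23b. Of the cargo-selecting subunits, Sec24a (0.11), Sec24b (0.30) and Sec24c (-0.027) lay below Sec24d (0.44, on 1 probe set). Their second probe sets gave 0.30 for Sec24a, 0.41 for Sec24b and -0.047 for Sec24c. Kdelr1 (0.059) lay below both of the other KDEL receptors. With the housekeeping reference all 6 of these paralogues would lie below 0, where only 14.2% of all genes lay above it. With the hybridisation reference all 6 would lie above 0, as did 81.9% of all genes. Among the factors the order was not uniform: Atf6b differed by 0.54, against -0.090 for Atf6, and Creb3l3 by 0.071. With 1 array per group, a difference between paralogues could not be tested.

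**Figure D3:**
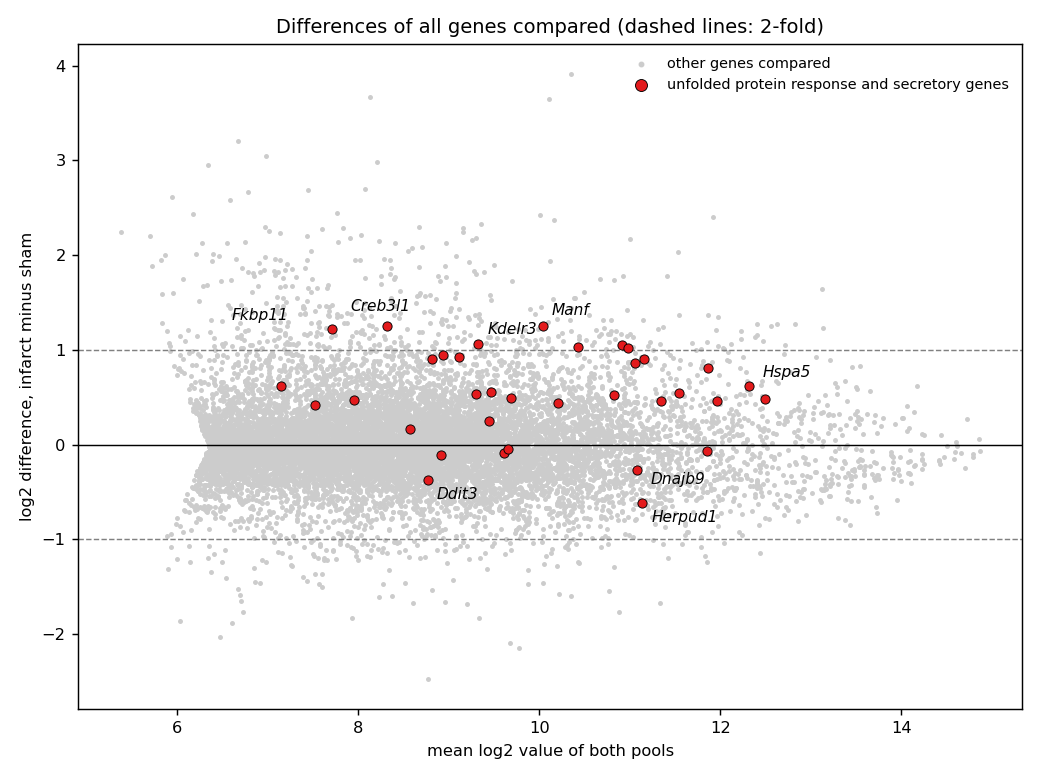
Each of 11961 genes by its mean log2 value over both arrays (horizontal) and its log2 difference, infarct minus sham (vertical), with the 35 unfolded protein response and secretory genes in red and dashed lines at 2-fold. Creb3l1 (1.26), Manf (1.25) and Fkbp11 (1.22, on 1 of its probe sets) lie highest of the 35, and Herpud1 (-0.62), Ddit3 (-0.38) and Dnajb9 (-0.27) lowest.

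Genes with an ERSE or ERSE-II in the window ran in both directions. The 10 such genes of the 35 had a median of 0.47, from -0.62 (Herpud1) to 0.95 (Creld2), with 8 above 0. The 19 with a window but neither element had a median of 0.56, with 15 above 0 (49.5% of all genes compared). The 6 genes without a window, in which no element could be sought, had a median of 0.80, with 5 above 0. The elements lay at different distances: the ERSE of Hspa5 spanned positions -65 to -47 from the gene start, that of Syvn1 -44 to -26 and the distal one of Hsp90b1 -212 to -194, while the ERSE-II of Dnajb11 lay after the start, at 8 to 18. Both genes with a UPRE were higher in the infarct pool (Kdelr3 1.07 and Sec24d 0.44). A match of letters is a description and does not show that a factor was bound.

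**Figure D4:**
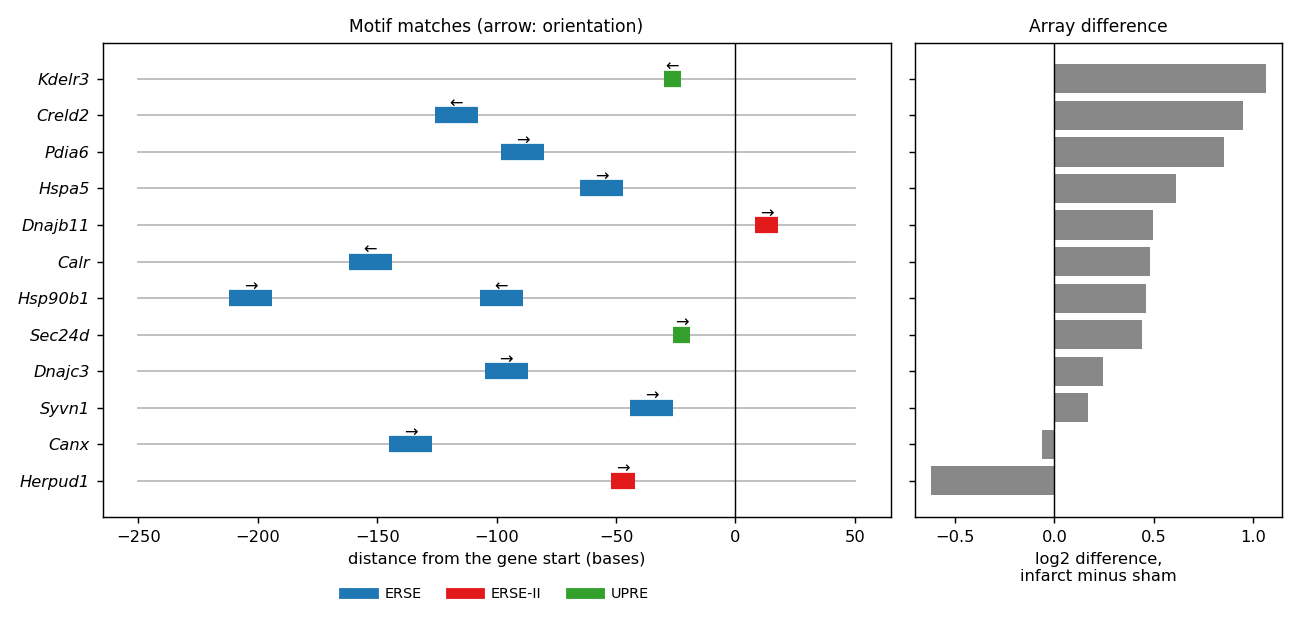
Positions of the ERSE (blue), ERSE-II (red) and UPRE (green) matches along the promoter windows of 12 genes, in bases from the gene start, with arrows for the orientation, beside the log2 difference of each gene (bars, infarct minus sham). Differences run from 1.07 (Kdelr3) to -0.62 (Herpud1), and Hsp90b1 alone has 2 ERSE matches.

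Hspa5 and Herpud1 are set side by side because both are classical targets of the response and had differences of opposite sign (0.61 and -0.62). Their whole windows follow (Hspa5 chr2:34771840-34772139 and Herpud1 chr8:94386179-94386478, both on the plus strand, 300 bases each), with the fixed letters of each match in capitals. The Herpud1 window holds the ERSE-II at -52 to -42 and, nearer the start at -18 to -1, an ERSE in which the last base differs from the consensus. That looser motif (CCAATNNNNNNNNNCCAC), added after the matches had been seen, was found in 11 of the 29 windows and in 116 of all genes (0.429%). Pdia3, Pdia4 and Herpud1 were the genes it added.
Hspa5: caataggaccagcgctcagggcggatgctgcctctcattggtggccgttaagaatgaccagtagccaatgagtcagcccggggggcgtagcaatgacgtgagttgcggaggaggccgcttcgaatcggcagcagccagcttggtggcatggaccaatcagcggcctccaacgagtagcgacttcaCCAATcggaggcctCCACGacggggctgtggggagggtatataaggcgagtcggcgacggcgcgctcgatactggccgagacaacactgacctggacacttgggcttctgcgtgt
Herpud1: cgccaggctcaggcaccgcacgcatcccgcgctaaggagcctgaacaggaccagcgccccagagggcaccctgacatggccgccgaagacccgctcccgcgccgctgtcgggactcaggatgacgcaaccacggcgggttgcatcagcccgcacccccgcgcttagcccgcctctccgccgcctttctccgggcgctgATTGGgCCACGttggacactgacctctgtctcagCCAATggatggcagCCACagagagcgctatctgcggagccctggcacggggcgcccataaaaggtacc

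Genes outside the 35 that hold an ERSE lay on both sides of 0. Of the 29 other genes with an ERSE, 17 had no probe set naming them alone, 5 were too dim and 7 were compared. Of these 7, 3 lay above 0 (49.5% of all genes compared), and their median was -0.049. Among these 7, named after their values were seen, the ER oxidase gene Ero1b had the highest difference (0.34, with another probe set at -0.26) and Acacb, an acetyl-CoA carboxylase of fatty acid metabolism, the lowest (-0.92). Derl3, which encodes an ERAD channel protein, differed by -0.28.

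Other genes of the same pathway were also higher as a rule, with a smaller median over the whole set, though not in every role. Of 127 such genes compared, 110 lay above 0 (49.5% of all genes compared), with a median of 0.28. At least 2-fold higher were 3, a share no larger than the 3.73% of all genes. The further folding enzymes were higher in 22 of 23 cases (median 0.45, -0.011 with the housekeeping reference). The glucosidase gene Mogs (0.89), which trims new glycans, the folding sensor gene Uggt1 (0.84, with another probe set at -0.21) and P4hb (0.81), which encodes a disulfide isomerase that is also a subunit of collagen prolyl hydroxylase, led this list, and Sil1 (-0.059) was the one below 0. Of 28 genes for translocation, TRAP and oligosaccharyltransferase, 26 lay above 0 (median 0.41, -0.048 with that reference). The signal peptidase subunit gene Spcs3 had 10.23 in sham and 11.31 in infarct (1.08), and Stt3a, a catalytic subunit of oligosaccharyltransferase, had 10.52 and 11.55 (1.03, with 1 of its 4 probe sets at -0.072). Ostc, another subunit of that enzyme, followed (0.81).

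Transport and degradation genes outside the 35 differed less. Of 37 ER-Golgi transport genes, 34 lay above 0 (49.5% of all genes compared), with a median of 0.25 (-0.21 with the housekeeping reference). Highest were Copg1 (0.84), a subunit of the COPI coat, Tmed3 (0.83), a cargo receptor, and Sec22b (0.72), a membrane fusion protein, and lowest was Ctage5 (-0.33), a procollagen export factor. The lowest probe sets of the 3 highest genes gave 0.099 for Copg1, 0.34 for Tmed3 and 0.18 for Sec22b. The further ERAD genes had a median of 0.092 over 22 genes (-0.37 with that reference), with no 2-fold difference among them. Ube2j1 (0.40), an ER-bound ubiquitin-conjugating enzyme, and Derl2 (0.39, with another probe set at -0.065) were the highest, and Erlec1 (-0.37), an ER lectin, was the lowest.

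Of 17 further sensors, PERK arm genes and membrane-bound factors, 13 lay above 0 (49.5% of all genes compared). Their median was 0.19 (-0.27 with the housekeeping reference). Atf4, the central transcription factor of the PERK arm, had 10.23 in sham and 10.98 in infarct (0.75, with other probe sets down to -0.22), and Atf3, an immediate-early factor that ATF4 can induce, had 7.70 and 8.76 (1.06). Chac1, a target of ATF4 and CHOP that degrades glutathione, had 7.79 and 7.24 (-0.55), the lowest difference of all the pathway genes compared outside the 35. Creb3, a membrane-bound factor related to Creb3l1, differed by 0.56 (its 4 probe sets ran from -0.10 to 0.72).

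Markers of fibroblasts, macrophages and dividing cells were higher as well. Of 9 markers of collagen-producing fibroblasts, 8 lay above 0 (49.5% of all genes compared), with a median of 0.65. Among them were Postn (1.28), Col5a2 (1.20) and Col1a1 (0.65). The summed linear signal of the list was 45763 in sham and 74827 in infarct (0.71 on the log2 scale). The general fibroblast markers Pdgfra (-0.14) and Tcf21 (0.061) differed less. All 10 macrophage markers lay above 0 (median 0.63), with a summed signal of 12970 in sham and 22344 in infarct, led by Msr1 (1.95). The 7 measured markers of cell division had a median of 2.05 (1.99 over the 6 above the median in both pools, each at least 2-fold higher; Bub1 passed through the infarct pool alone), with a summed signal of 1163 in sham and 4614 in infarct. With the housekeeping reference, 6 of the 9 fibroblast markers, 8 of the 10 macrophage markers and all 7 cell division markers lay above 0. The second probe set of Col1a1 gave 0.19. The part of these cells in the differences of the 35 genes was not tested.

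Markers of heart muscle, the labelled tissue, were bright in both pools. The 10 cardiomyocyte markers had values from 12.62 (Ryr2 in the infarct pool) to 14.90 (Mb in the sham pool, the highest value on either array). Of these 10, 8 lay below 0 (49.8% of all genes compared), with a median difference of -0.11 (0.20 with the hybridisation reference). Probe sets near the top of the scale may show less than the full difference, which was not tested. Less bright ones ran as low as -0.67 for Myh6, -0.60 for Tnnt2, -0.66 for Ryr2, -0.34 for Pln and -0.32 for Myl3. The less bright one of Mb gave 0.036, against -0.067 at its brightest. Plasma cells, which secrete antibody, are rich in Fkbp11 and Sdf2l1 as well. Of 7 plasma cell markers on the array, Jchain (5.54 and 4.83), Tnfrsf17 (5.71 and 5.53) and Pou2af1 (3.86 and 4.06) were below the median of both arrays, and Ighm differed by -0.60. Sdc1, with 8.03 and 9.43, was the one of the 4 compared that lay above 0, and it is also found on other cells.

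**Figure D5:**
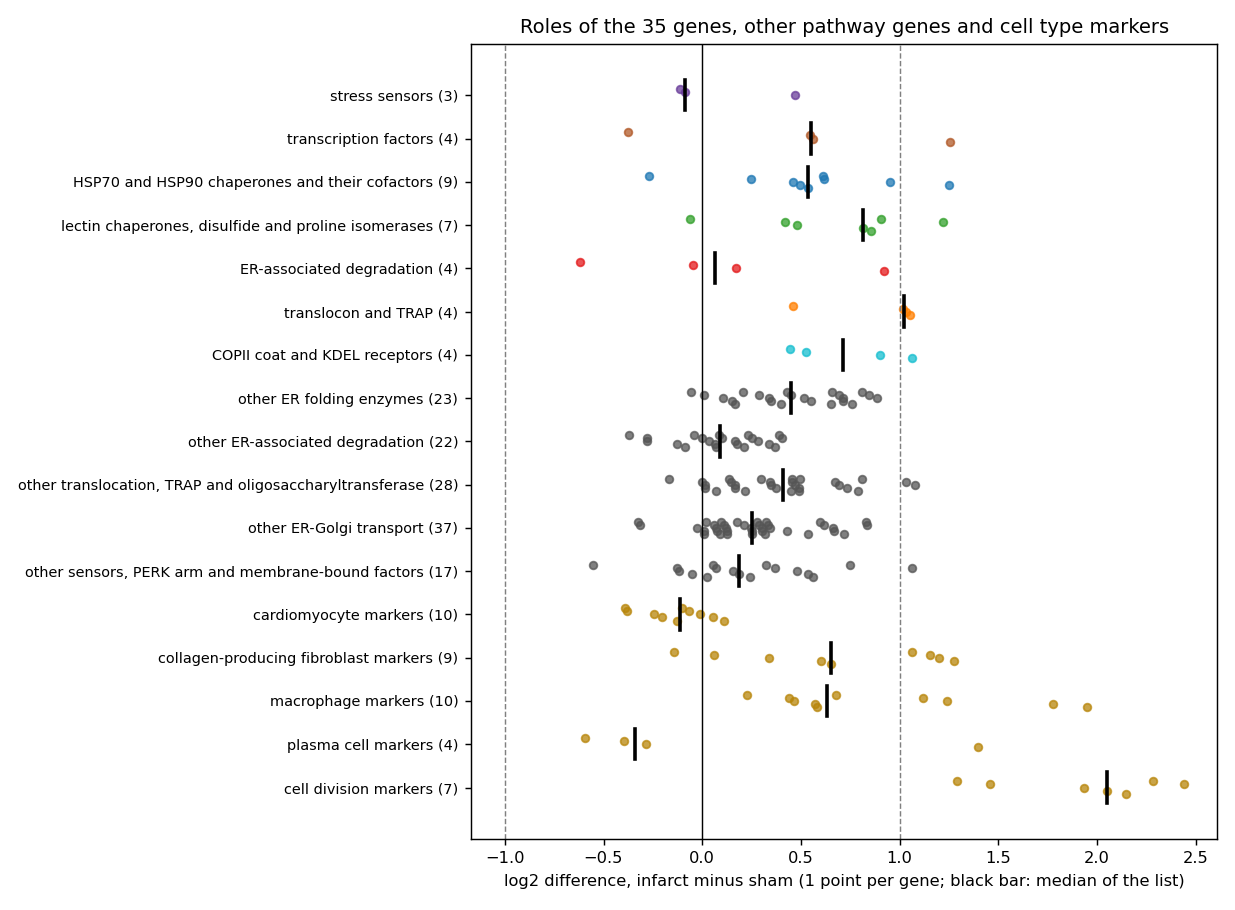
Log2 difference (infarct minus sham) of each gene compared, 1 point per gene, for the roles of the 35 genes (coloured), the other pathway genes (grey) and cell type markers (ochre), with the median of each list as a black bar and its number of genes in parentheses. The translocon and TRAP genes have a median of 1.02 (0.70 when probe sets are averaged), and the cell division markers lie farthest to the right (median 2.05). The medians of the sensors (-0.090) and of the ERAD genes among the 35 (0.063) lie near 0, though these ERAD genes run from -0.62 to 0.92.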

How the data were processed

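Biotinylated cRNA from 1 sham pool and 1 infarct pool, each of 3 hearts, was hybridised by the authors to GeneChip Mouse Genome arrays. The deposited values are on the log2 scale and, per the labels, were made by the authors with RMA (background correction, normalization of both arrays together, 1 value per probe set). The software version is not given in the sources used here. RMA gives both arrays nearly the same distribution, so that a difference in total mRNA cannot be seen. Of 45101 probe sets, 34945 name 1 gene, 932 name more than 1, 9160 name no gene and 64 are controls. Only the first kind was used for genes, with 5 of 229 listed symbols matched through RefSeq synonyms.

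A gene was read by its probe set of highest mean value and compared if this reached the array median on at least 1 array. Differences are infarct minus sham, and 2-fold is a log2 difference of 1. With 1 array per group no p-value was computed, no sample could be left out, and the only spread at hand is that between probe sets. The 35 genes and all lists were chosen with earlier results of these data known. All 35 are named, and of each list of other pathway genes the 3 that differed most in size, plus the extreme one on the other side of 0. The loess alternative used a span of 0.4, and the stricter filter was the 75th percentile. The procedure was tested on simulated data with shifts well past 2-fold and less scatter between probe sets than here. That test does not cover differences close to 2-fold. Motifs were searched in RefSeq promoter windows of GRCm38.p6. Retrieval signals at the ends of the proteins were planned and not analysed here. Python 3.11.15, numpy 2.4.6, pandas 2.3.3, statsmodels 0.14.6 and matplotlib 3.10.9 were used.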

Additional observations from a re-analysis of the deposited data

How the results depend on the processing

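The count of 2-fold higher genes among the 35 (7) was 13 after centring on the hybridisation controls, 4 after centring on the poly-A controls, and 0 both after centring on the housekeeping genes and at a log2 threshold of 1.4. Under the housekeeping centring 1 gene, Herpud1, was 2-fold lower, and the median of the 35 genes was 0.078, against 0.86 under the hybridisation controls. In each of these cases the cause is the construction of the alternative, which shifts every gene or moves the threshold. Without probe sets ending in _x_at or _s_at, Fkbp11 turned from 1.22 to -0.31. The other 39 alternative values of the counts and of the median over the 35 genes stayed within 1.5 times the count, or within the SD between probe sets (0.23), including centring on the array medians, quantile normalization and removal of a loess trend. Of the medians by role, the choice of probe sets moved that of the translocon and TRAP genes from 1.02 to 0.70 (averaged), that of the lectin chaperones and isomerases from 0.81 to 0.53 (averaged) and 0.48 (without _x_at and _s_at), and, at the probe set of largest difference, those of the ERAD genes to 0.36 and of the COPII and KDEL receptor genes to 0.96. When probe sets were averaged, Fkbp11 was at 0.17, Pdia4 at 0.11 and Ssr1 at 0.58, and Ern1 and Eif2ak3 were too dim to be compared. At the 75th percentile filter Sdf2l1 and Pdia4 were too dim. No paired analysis was possible because each group is 1 pool on 1 array, and the number of arrays limits every value.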

Other observations

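Outside the 35 genes, the UPRE was found in 191 genes, of which 101 were compared, 59 lay above 0 (49.5% of all genes compared) and 2 were at least 2-fold higher (3.73% of all genes), with a median of 0.071. The ATF4 composite site was found in 293 genes, of which 47 were compared (median 0.028). Of these 47, 24 lay above 0 (49.5% of all genes), 1 was at least 2-fold higher (3.73%) and 1 at least 2-fold lower (1.26%). ERSE-II was found in 10 further genes, and all 6 that were compared lay above 0 (49.5% of all genes compared), with a median of 0.14. Rcl1 (0.51) and Krtcap2 (0.38), a subunit of oligosaccharyltransferase, were highest among these 6, and Rbm39 (0.0070) was lowest. After centring on the housekeeping genes (mean difference 0.46), only Rcl1 of these 6 would lie above 0, where 14.2% of all genes did. A probe set shared by Sec61b and Gm10320 was dim on both arrays and differed by -0.31.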
